A study of Gallus gallus with 8 samples.

Results

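The comparison described here sets chicken DT40 B cells labelled as a double knockout of IRF4 and BCL6 (DKO) against wild-type DT40 cells (WT). It rests on 6 of the 8 arrays of the study, 3 labelled DKO and 3 WT, chosen by their genotype labels, and covers every spot that is not an array control. DT40 is a chicken B cell lymphoma line derived from the bursa that keeps diversifying its immunoglobulin genes in culture. The remaining 2 arrays, of cells with BCL6 knocked out alone (BCL6KO), are used only for levels set beside the others. The study, as its title puts the matter, concerns antibody secretion without IRF4. All 3 groups are the same cell line with no treatment named, and the labels give neither the way the genes were deleted nor whether each knockout is a single clone. The extraction protocol speaks of separate cultures of WT and of cells without IRF4, and names neither DKO nor BCL6KO, so whether the DKO replicates are separate cultures is not known. If they are not, the p-values below measure only technical spread.

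IRF4 and BCL6 are transcription factors that hold opposite places in the life of an activated B cell. BCL6 is a repressor that keeps germinal centre B cells in that state, while IRF4 is needed for plasma cells to form and works with BLIMP-1 and XBP1 in setting up antibody secretion. At lower levels IRF4 also acts in earlier B cells, with the ETS factors SPI1 and SPIB as partners on DNA.

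Every array read 43803 spots that were not controls, and the share that rose clear of background was 62.4% to 68.2% in WT and 65.8% to 67.8% in the arrays labelled DKO. These 6 arrays shared a scan session. WT array 2 shared a slide with DKO array 1, and WT array 3 shared one with DKO array 2. Values are log2 levels, meaning log2 of the processed signal of a probe minus the 75th percentile of its array. A level of 0 is therefore the signal of a fairly bright probe, and levels of different genes cannot be ranked because each probe binds its target differently. Pearson's r, taken across probes, which do not count as replicates, was 0.992 to 0.994 for pairs of arrays within WT, 0.992 to 0.993 within DKO and 0.945 to 0.947 between them. The SD of the log2 difference between 2 arrays was 0.486 to 0.557 within the groups and 1.34 to 1.41 between them.

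The labels themselves need a caution before any direction is read. In the value table that the authors deposited, the 3 columns labelled WT correlated best with the scanner arrays labelled DKO (r = 0.862 to 0.888, on gene-centred values) and negatively with the WT scanner arrays of the same number (r = -0.287 to -0.264). The columns labelled DKO were most like WT scanner arrays (r = 0.339 to 0.602), and the BCL6KO columns followed their own scanner arrays (r = 0.942 and 0.945). All directions below come from the labels of the scanner files, and would turn round under the labels of the value table. In direction, the targeted genes run the way the scanner labels say. Both IRF4 probes were lowest on the scanner arrays labelled DKO, and all 4 BCL6 probes were highest on the WT scanner arrays. Most BCL6 probes still kept signal in the arrays labelled DKO, as given below, so this direction does not settle the genotype.

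IRF4 was low in the arrays labelled DKO. Its log2 level was 3.16, 2.96 and 2.92 on the WT arrays and -1.78, -1.72 and -1.66 on the arrays labelled DKO. The groups lay far apart with little spread inside each. The difference was 26.6-fold (log2 change -4.73 ± 0.08 SE, adjusted p = 1.97e-07 by limma). The other IRF4 probe read -3.16, -3.14 and -3.04 in WT and was not well above background on any array labelled DKO. Its fall was at least 10.3-fold. Such a bound sets the mean of the bright group against the dimmest level that still counted as well above background on each array of the dim group, or the probe's own level if that was higher. It holds for the processed signal only.

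BCL6 kept much of its signal on most probes in arrays whose label names a loss of BCL6, unlike the BCL6KO arrays. The brightest of its 4 probes read 2.57, 2.58 and 2.53 on the WT arrays and 0.67, 0.82 and 0.94 on the arrays labelled DKO. No DKO array reached a WT array, and the DKO arrays kept 29.7% of the WT signal (log2 change -1.75 ± 0.07 SE, 3.36-fold lower, adjusted p = 5.65e-06). Groups that do not overlap were common, at 15772 of the 20583 genes tested. Probes 2 and 3 of BCL6 gave log2 changes of -1.89 and -1.83. On the fourth, WT read -2.07, -2.07 and -2.02, and none of the arrays labelled DKO was well above background, a fall of at least 21.4-fold. Taking the mean of all 4 probes in place of the brightest moved the log2 change to -2.97. On the BCL6KO arrays the brightest probe read -4.49 and -4.97, well under either of the other groups. Which part of the transcript each probe reads relative to a deletion was not analysed here, so these probes cannot settle the genotype.

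**Figure D1:**
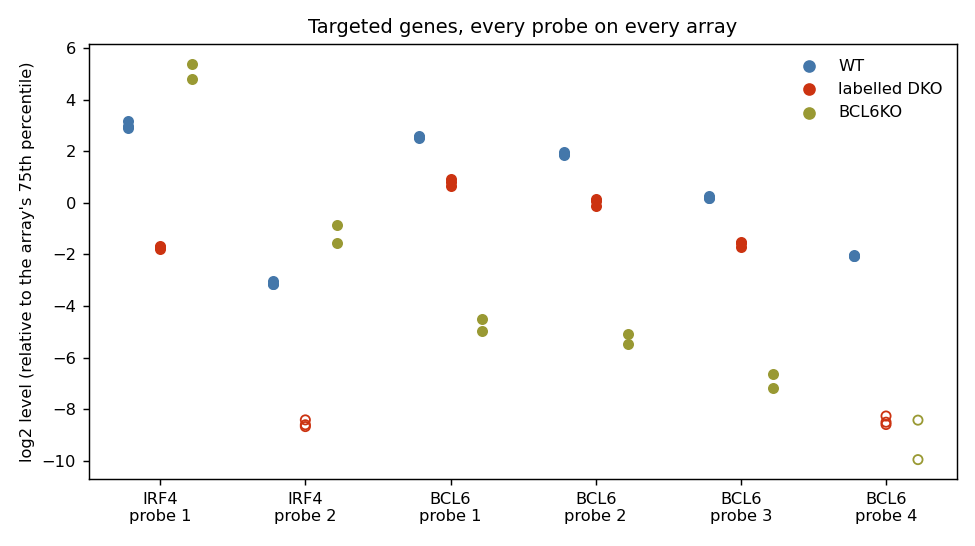
Log2 level (signal relative to the array's 75th percentile) of every kept IRF4 and BCL6 probe on each array, with WT in blue, arrays labelled DKO in red and BCL6KO in olive; open circles mark groups in which no array was well above background. Both IRF4 probes and 1 BCL6 probe fall steeply in the arrays labelled DKO, while the other 3 BCL6 probes lie between WT and BCL6KO.

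The difference from WT was broad. Of 20583 entries tested with 1 probe each, 14848 differed at an adjusted p under 0.05 (72.1%). An entry is a gene symbol or, for a probe with no symbol, the transcript record it is listed under. Only 4020 entries carried a symbol, so 1 gene can enter more than once. Entries are called genes throughout. The log2 change of the median gene was 0.059. There were 8184 genes higher (39.8%) and 6664 lower (32.4%) in the arrays labelled DKO, so 55.1% of the calls were rises. Scaling each array by its median in place of the 75th percentile moved the median gene to -0.095 and the share of rises to 41.8%. Changes under about 0.2 log2 thus carry a direction that depends on the scaling. For that reason larger changes are given most room, and a limit of 2-fold, chosen after the counts were seen, is used beside the test. Past that limit were 4650 genes, 2604 higher (12.7%) and 2046 lower (9.94%), and 1411 differed by at least 8-fold. In 781 called genes no WT array was well above background while all 3 DKO arrays were, and in 505 the reverse held. Both sets passed the filter through 1 group alone and so had to differ.

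**Figure D2:**
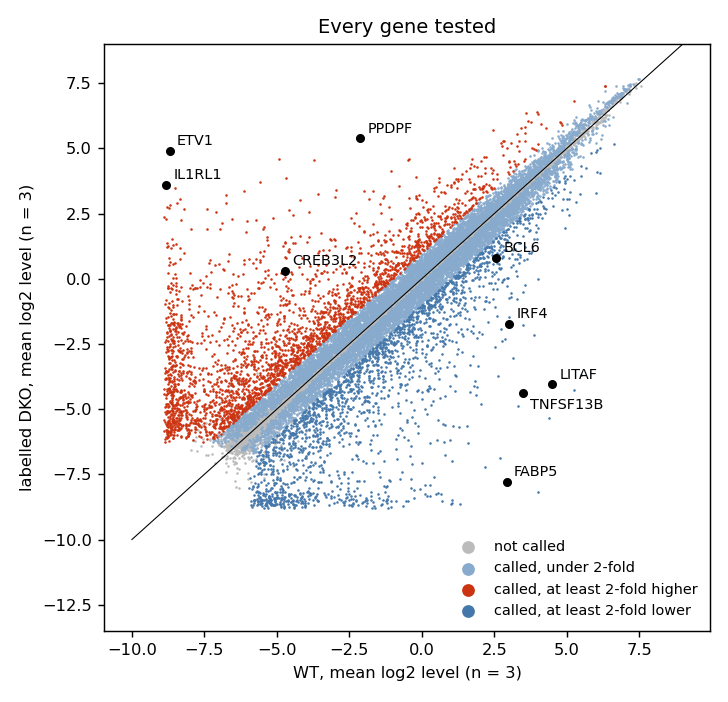
Mean log2 level of every gene tested in WT (horizontal axis, n = 3) and in the arrays labelled DKO (vertical axis, n = 3), coloured by call, with the diagonal marking no difference. Genes called and at least 2-fold apart number 2604 above the diagonal and 2046 below it, and the strips at the left and bottom edges are genes below background in 1 group.

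Regulators of B cell fate did not move as a block. No probe was matched to PRDM1, which encodes BLIMP-1, or to BACH2, SPIB or IKZF3, so none of these has a value here. ID3 and ID2 encode inhibitors that bind E proteins such as TCF3 and keep them off DNA. ID3 fell from -0.10, -0.31 and -0.33 to -3.20, -3.00 and -2.84 (log2 change -2.77 ± 0.11 SE, adjusted p = 4.55e-06). The other ID3 probe fell by 0.68 on the log2 scale, and the mean of both probes by 1.72. ID2 moved the opposite way, from -0.40, -0.53 and -0.48 to 1.27, 1.23 and 1.18 (log2 change 1.70 ± 0.05 SE, adjusted p = 1.36e-06), and its other probes rose by 1.92 and 1.77. For both genes the arrays of the groups did not overlap, as held for 15772 of the 20583 genes tested.

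POU2AF1, a coactivator of immunoglobulin genes and itself part of the plasma cell programme, read 5.12, 4.95 and 5.00 in WT and 3.62, 3.92 and 3.92 in the arrays labelled DKO. That is a 2.3-fold fall (adjusted p = 9.61e-05), with falls of 1.60 and 1.57 log2 on its other probes. SPI1, an ETS factor known as a partner of IRF4 on DNA, rose 1.82-fold from -0.52, -0.41 and -0.44 to 0.38, 0.44 and 0.40 (adjusted p = 1.21e-05). PAX5, which maintains B cell identity, fell from -2.68, -2.77 and -2.75 to -3.28, -3.23 and -3.25 (log2 change -0.52 ± 0.04 SE, adjusted p = 7.15e-05). Its probe was dim but well above background on all 6 arrays. No array of 1 group reached the other, as in most genes tested.

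Several fate regulators shifted by under 1.5-fold. TCF3 rose by 0.40 log2, the lymphoid factor IKZF1 by 0.33, the secretory factor XBP1 by 0.31 and the early B lineage factor EBF1 by 0.26 (adjusted p = 0.0001, 0.000343, 0.00183 and 0.00156). Under median scaling these rises shrank to 0.25, 0.17, 0.15 and 0.11, and the call of EBF1 was lost (adjusted p = 0.0513). EBF1 and XBP1 were also not called when the BCL6KO arrays entered the fit (adjusted p = 0.605 and 0.11). JCHAIN, which joins immunoglobulin into polymers, read 1.86, 1.78 and 1.86 in WT and 1.35, 1.63 and 1.63 in the arrays labelled DKO (log2 change -0.30 ± 0.09 SE, adjusted p = 0.0229). The call was lost without WT array 1 (adjusted p = 0.0655), without WT array 3 (0.0651) and with no filter on dim probes (0.0503). IRF8, a relative of IRF4, had a log2 change of 0.23 (adjusted p = 0.0918) and became called without DKO array 1 (0.34, adjusted p = 0.00238). MYC read 4.68, 4.57 and 4.65 against 4.70, 4.57 and 4.68, and did not pass the test (log2 change 0.02 ± 0.05 SE, adjusted p = 0.806).

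**Figure D3:**
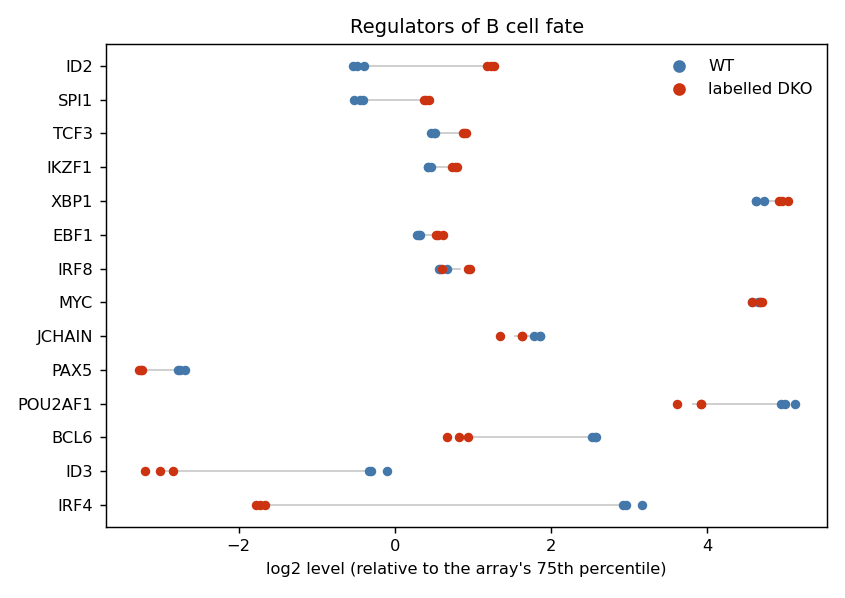
Log2 level of fate regulators on the 3 WT arrays (blue) and the 3 arrays labelled DKO (red), 1 probe per gene, ordered by log2 change. IRF4, ID3, BCL6 and POU2AF1 lie lower and ID2 and SPI1 higher in the arrays labelled DKO, while MYC overlaps.

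Among named genes that both groups expressed above background, the 12 largest rises ran from 32.5-fold to 183-fold (adjusted p = 3.76e-08 to 2.52e-06). PPDPF read -2.09, -2.19 and -2.12 in WT and 5.69, 5.10 and 5.35 in the arrays labelled DKO. BASP1, a membrane protein studied in chicken cells as an antagonist of MYC-driven transformation, went from -5.23, -5.04 and -5.07 to 2.38, 2.33 and 2.31. LGALS1B, a galectin that binds sugars on the cell surface, went from -4.24, -4.18 and -4.17 to 2.96, 3.04 and 3.03. In all 3 genes the groups lay far apart and the arrays of each group close together. Also in the set were the lipoprotein receptor VLDLR (96.5-fold), the amyloid precursor APP (69.3-fold), the proteoglycan biglycan (BGN, 52.1-fold) and the protocadherin PCDHGC3 (36.8-fold). The actin-binding protein ABLIM1 rose 44.4-fold and the glycosyltransferase GALNT18, which begins O-linked glycans, 44.9-fold. The last members were PPP1R19L (32.5-fold), the beta globin HBBA and CREB3L2.

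CREB3L2 encodes a transcription factor held in the endoplasmic reticulum membrane and released by stress, with a role in secretory capacity. Its log2 level was -4.57, -4.82 and -4.77 in WT and 0.43, 0.26 and 0.23 in the arrays labelled DKO, a rise of 32.5-fold (adjusted p = 2.45e-07), and the groups were clearly separate. The other CREB3L2 probe was above background in the arrays labelled DKO only. The BCL6KO arrays read 1.32 and 1.96 on the brighter probe, so it was high in both knockout labels.

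The large falls described here among genes measured in both groups ran from 35.6-fold to 371-fold (adjusted p = 9.4e-09 to 6.72e-07). LITAF, a factor induced by lipopolysaccharide and linked to TNF expression, read 4.51, 4.50 and 4.48 in WT and -4.01, -4.06 and -4.04 in the arrays labelled DKO. TNFSF13B encodes BAFF, a survival factor of B cells that chicken B cells make themselves, and it went from 3.48, 3.52 and 3.49 to -4.61, -4.36 and -4.20. TLR7, a receptor for single-stranded RNA, went from 1.30, 1.31 and 1.20 to -5.96, -5.48 and -5.57. In these 3 genes every array labelled DKO lay far under every WT array. SOCS1, an inhibitor of JAK kinases, was lower by 39.1-fold. The heparin-binding growth factor midkine (MDK) was lower by 295-fold and the insulin-like growth factor binding protein IGFBP2 by 61.8-fold. The others were the Popeye-domain gene BVES (115-fold), the stem cell factor SALL4 (45.7-fold), SDR42E2 (43.2-fold), the nucleotide synthesis enzyme PRPS2 (41-fold) and LBH (35.6-fold). Extra probes of BVES, SALL4, SOCS1, TLR7 and TNFSF13B fell as well, though several of these were not well above background on every array labelled DKO.

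Genes seen in just 1 of the groups can be given only as bounds. ETV1, an ETS transcription factor, read -8.95, -8.99 and -8.14 on the WT arrays, none well above background, and 5.02, 4.81 and 4.86 on the arrays labelled DKO, at least 2840-fold higher on that probe. The other ETV1 probe cleared background on 2 of 3 WT arrays, so ETV1 signal was not wholly absent from WT. It rose from a mean of -5.67 to 0.6 (log2 change 6.26, adjusted p = 3.99e-05). That is far less than the bound on the first probe, 11.47 log2, so the size of the rise differs between the probes. IL1RL1, the receptor of interleukin 33, was at least 1170-fold higher and the matrix protein gene EDIL3 at least 1060-fold higher. The lens crystallin CRYBB1 was at least 359-fold higher, PHYHIPL at least 187-fold, the corepressor RUNX1T1 at least 96.6-fold, the oxysterol receptor GPR183 at least 91.4-fold and the protease CAPN3 at least 79.2-fold (adjusted p = 1.73e-07 to 1.47e-06 over the 8 genes). On these probes the 8 genes passed the filter through the arrays labelled DKO alone and had to differ, so their p-values add no support. GPR183 guides B cells within lymphoid tissue and is a known target of BCL6 repression.

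In the opposite direction, FABP5, a fatty acid binding protein, read 2.89, 2.94 and 2.92 in WT and was not well above background on any array labelled DKO, at least 669-fold lower. CD200, an inhibitory ligand of the immunoglobulin superfamily, was at least 125-fold lower and the lysophosphatidylserine receptor GPR174 at least 238-fold lower. CD3E, a chain of the T cell receptor complex, was at least 182-fold lower from WT levels of 1.11, 1.00 and 1.04. The monooxygenase-like MOXD1 (at least 395-fold), the potassium channel KCNK7 (at least 220-fold), the gasdermin DFNA5 (at least 178-fold) and the microsomal glutathione transferase MGST1 (at least 107-fold) complete the set (adjusted p = 4.71e-08 to 4.94e-06 over the 8 genes). These 8 genes also had to differ, having passed the filter through the WT arrays alone, so their p-values add no support. The fitted log2 changes of genes seen in 1 group are not bounds, and the bounds hold for the processed signal only. Background correction by normexp, which here also added 50 to every signal, shrank the fitted changes of the dimmer genes by over 1.5 times. No call was ended. The added 50 by itself makes changes of dim genes smaller. Each of these genes, rises and falls alike, had a change smaller than its bound in at least 1 alternative processing. The smallest log2 changes over the alternatives were 9.93 for ETV1, 9.37 for IL1RL1 and -7.95 for FABP5. Their bounds were 11.47, 10.19 and 9.39 log2. With normexp, CAPN3 went from 8.22 to 4.95, CD200 from -8.75 to -5.43 and MGST1 from -8.60 to -5.33. RUNX1T1 likewise went to 5.57, PHYHIPL to 6.03, GPR183 to 4.91 and DFNA5 to -6.31.

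**Figure D4:**
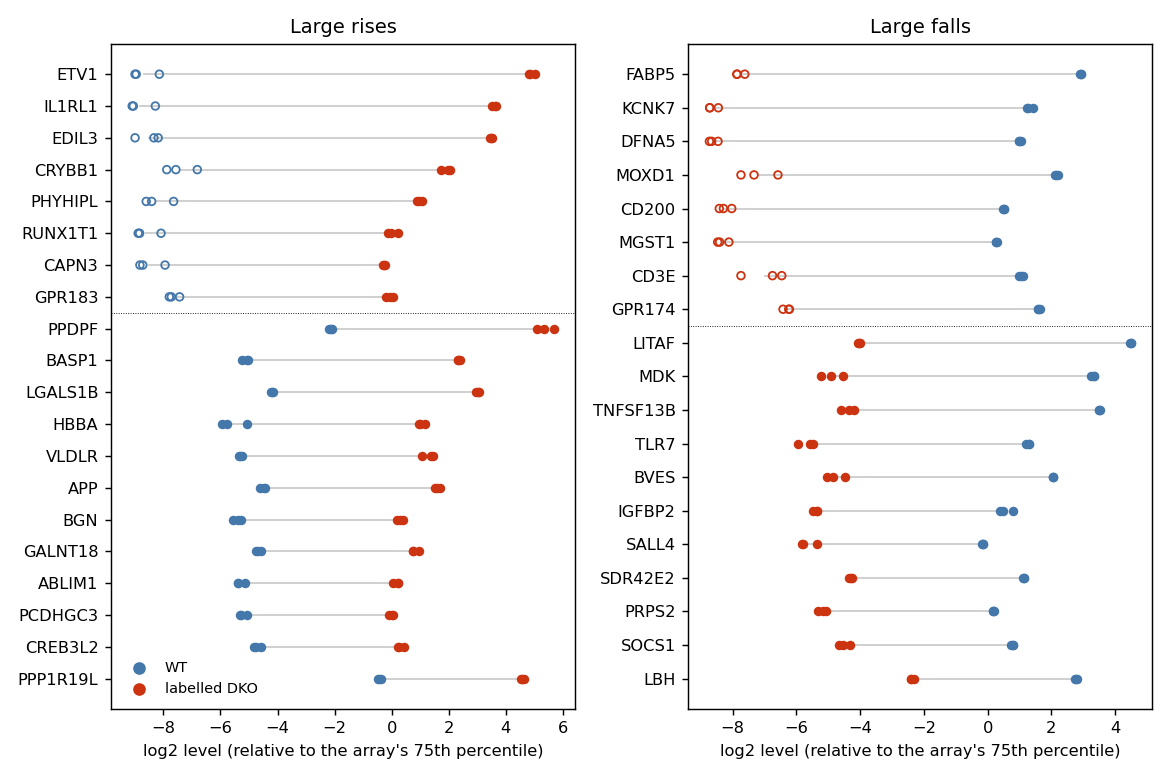
Log2 level on each WT array (blue) and each array labelled DKO (red) for the genes with the largest rises (left) and falls (right); genes above the dotted line are below background in 1 group, shown by open circles, and those under it are measured in both. The replicates of a group sit close together beside the gap between groups.

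The genes were also read by function, in 25 lists. The share of genes called and past 2-fold over all genes tested, 12.7% higher and 9.94% lower, is the level each list is read against. For counts at any size the shares over all genes are 39.8% higher and 32.4% lower. List members all carry a symbol, which most genes tested do not. Among the 4020 tested genes with a symbol, 414 were past 2-fold higher and 415 lower, without the excess of rises. At any size 1602 of them were called higher and 1411 lower, with a median log2 change of 0.036. Median scaling, the slide as a fixed block and the inclusion of the BCL6KO arrays changed many of the counts that include small changes, so the counts past 2-fold are given first. Bounds hold for the processed signal, and a change given with normexp can be smaller than the bound.

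Genes of the plasma cell programme split. Of 17 tested, 3 rose and 4 fell by at least 2-fold (17.6% and 23.5%), and 7 rose and 8 fell at any size, with a median log2 change of -0.21. SUB1, a cofactor of transcription, rose from -0.29, -0.32 and -0.33 to 2.26, 2.18 and 2.27, and all 5 of its probes rose by 2.47 to 2.77 log2. CREB3L2 rose as given above. IRF4 and CD38 led the falls. IRF4 is a gene that the DKO label names as lost, so its place among the falls says nothing about the rest of the list. CD38, an enzyme of the plasma cell surface, read -3.02, -3.83 and -3.81 against -5.42, -5.10 and -5.25 (log2 change -1.70 ± 0.24 SE, adjusted p = 0.00101), and normexp reduced the change to -1.08.

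The machinery of secretion moved little. Of 25 genes of ER translocation and transport, none changed by 2-fold, 13 rose and 5 fell, with a median log2 change of 0.16. Under median scaling the direction of the list turned, with 6 rises and 10 falls. SEC23A and SRP14 rose by 0.74 and 0.65 log2, and SAR1B and SEC62 fell by 0.85 and 0.65. Of 21 genes of the unfolded protein response and ER folding, 2 rose past 2-fold, CREB3L2 and SEL1L, the latter a scaffold of ER-associated degradation (log2 change 1.47 ± 0.18 SE). ERO1B, an oxidase that drives disulfide formation, was the single fall past 2-fold, from 1.81, 1.83 and 1.84 to -0.70, -0.71 and -0.65. HSPA5, the main ER chaperone, had a log2 change of -0.19 and did not pass the test (adjusted p = 0.0501). HSPA5 was named after its value was seen, as were the genes further down for which this is said.

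In N-glycosylation, 3 of 14 genes fell past 2-fold and none rose so far. The sialyltransferase ST6GAL1 fell from 2.49, 2.46 and 2.46 to 0.18, 0.19 and 0.19 (4.87-fold, adjusted p = 1.31e-07). Of its other 4 probes, 3 fell by 2.16 to 2.32 log2 and 1 by 0.38. DPM2, a subunit of the enzyme that makes dolichol-linked mannose, fell 2.35-fold. ALG6 and ALG12, which extend the lipid-linked glycan, rose by 0.36 and 0.30 log2, and by 0.20 and 0.15 under median scaling.

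Genes of B cell receptor signalling leaned lower. Of 32 tested, 7 fell and 1 rose by at least 2-fold (21.9% and 3.12%), and 20 fell and 11 rose at any size. Their median log2 change was -0.45 against 0.059 for all genes, and under median scaling the falls past 2-fold became 11. VAV2, an exchange factor for small GTPases, read 1.46, 1.47 and 1.46 in WT and -1.16, -1.02 and -0.87 in the arrays labelled DKO (5.58-fold lower, adjusted p = 1.72e-06). CBL, a ubiquitin ligase that ends signalling, was at least 2.34-fold lower, with a change of -1.90 log2 that normexp cut to -0.62. CD79B and BTK, named after their values were seen, fell 2.15-fold and 2.12-fold (adjusted p = 0.000135 and 0.000122). They encode a signalling chain of the receptor and a kinase downstream of it. The adaptor BCL10 rose by 0.70 log2. The kinase FYN was not well above background in WT and was at least 9.33-fold higher in the arrays labelled DKO, with a change of 5.24 log2 that became 2.41 with normexp.

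B lineage identity genes stood near the shares over all genes. Past 2-fold, 4 of 26 were higher and 4 lower (15.4% each), beside 12.7% and 9.94% of all genes tested. Under median scaling 8 were lower. The receptor gene CHIR-AB1, of the chicken Ig-like receptor family, was at least 74-fold higher (log2 change 7.65, or 4.87 with normexp). CD72, a coreceptor of B cells, rose from 2.27, 2.41 and 2.48 to 4.09, 4.26 and 4.40. CD81, a tetraspanin of the B cell surface, fell from 3.63, 3.58 and 3.68 to 0.92, 0.64 and 0.71 (7.34-fold, adjusted p = 1.2e-06). All 3 probes of CD81 fell by 2.61 to 2.88 log2.

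Genes of immunoglobulin diversification and recombination repair also leaned lower, with 6 of 30 past 2-fold lower and 1 higher (20% and 3.33%) and a median log2 change of -0.26. POLH, the translesion polymerase eta, fell from 1.57, 1.42 and 1.52 to -0.88, -0.93 and -0.95, which is 5.36-fold (adjusted p = 4.47e-07). LIG4, the ligase of end joining, fell 3.92-fold. UNG, which removes uracil from DNA and was named after its value was seen, read -0.69, -0.62 and -0.55 against -1.61, -1.65 and -1.61. The terminal transferase DNTT rose 6.47-fold, from -4.80, -4.63 and -4.45 to -2.24, -1.84 and -1.73, and the polymerase POLQ rose by 0.95 log2.

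Of 18 genes known as targets of BCL6 repression in mammals, 8 rose past 2-fold (44.4%) and 3 fell past it (16.7%). Median scaling left 8 rises and made 5 falls, and 2 of the 18 were measured in 1 group only. BCL2, which blocks apoptosis, rose from -4.27, -4.16 and -4.17 to -1.82, -1.95 and -1.91 (4.95-fold, adjusted p = 5.51e-07). CCND2, a G1 cyclin, rose 4.01-fold and the CDK inhibitor CDKN1B 2.47-fold. GPR183, ID2 and IRF7 were among the other rises. The falls were TLR7, CD44 and CDKN1A. The adhesion receptor CD44 was at least 17.7-fold lower on the processed signal (log2 change -5.82, or -2.74 with normexp). CDKN1A, a CDK inhibitor named after its value was seen, fell 3.58-fold. This list is built on mammalian work, and its members were not tested for BCL6 binding here.

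NF-kB factors and targets leaned lower. Of 16 tested, 5 fell and none rose past 2-fold, the median log2 change was -0.81, and with normexp the falls past 2-fold were 3. LITAF, given above, was the largest fall. TRAF5, an adaptor of TNF receptors, fell from 2.43, 2.37 and 2.43 to 0.27, 0.24 and 0.26 (4.44-fold, adjusted p = 2.08e-07). The other 3, named after their values were seen, were NFKBIZ (3.68-fold), the chemokine CCL20 (3.41-fold) and the kinase MAP3K14 (2.06-fold). The kinase CHUK rose by 0.44 log2, a call lost when the BCL6KO arrays entered the fit (adjusted p = 0.0506). TNIP2 had a log2 change of 0.24 (adjusted p = 0.0316) that was lost in 12 of the alternatives and fell to 0.04 under quantile normalization.

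Interferon response genes moved both ways, with 4 of 21 higher and 6 lower past 2-fold (19% and 28.6%, beside 12.7% and 9.94% of all genes). IRF7, which drives interferon genes, rose 2.47-fold from -3.15, -3.25 and -3.17 to -2.00, -1.83 and -1.82. TLR7 and SOCS1 fell as given above. IRF1, named after its value was seen, read -0.57, -0.70 and -0.55 in WT and -5.89, -6.23 and -6.05 in the arrays labelled DKO, of which 2 of 3 were well above background (adjusted p = 2.67e-07).

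In antigen presentation, CD74, the invariant chain of class II molecules, fell 4.26-fold from 6.26, 6.09 and 6.07 to 3.75, 4.15 and 4.24 (adjusted p = 3.61e-05). CTSS, the protease that trims it, fell 6.89-fold. The lysosomal proteases CTSD and CTSB rose 2.71-fold and 1.87-fold. Of 14 genes tested in this list, 3 fell and 1 rose past 2-fold.

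Cytokine receptors and adhesion molecules held large changes in both directions, fewer of them once dim genes were left out. Of 25 cytokine receptor and signalling genes, 9 rose and 6 fell past 2-fold (36% and 24%), and 4 of the 25 were measured in 1 group only. With probes well above background on all 6 arrays, 20 were tested, and 5 rose and 5 fell so far. IL1RL1 and LIFR, the receptor of leukaemia inhibitory factor, were below background in WT and at least 1170-fold and at least 47.5-fold higher (LIFR log2 change 7.57, or 4.57 with normexp). KIT and IL18R1, named after their values were seen, were likewise at least 8.62-fold and at least 17.8-fold higher. TNFRSF21, a death receptor, fell 6.42-fold. Of 29 adhesion and migration genes, 5 rose and 8 fell past 2-fold (17.2% and 27.6%). As many as 7 of these 29 passed the filter through 1 group alone and so had to differ. Without them and other genes dim on some array, the counts were 2 and 3 of 20. Over all genes under that filter, 2859 of 17524 were past 2-fold in either direction. The cadherin CDH11 was at least 12.2-fold higher (4.26 log2, or 2.42 with normexp), and the integrin ITGA9 was at least 17.2-fold lower (-6.27, or -3.26 with normexp).

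**Figure D5:**
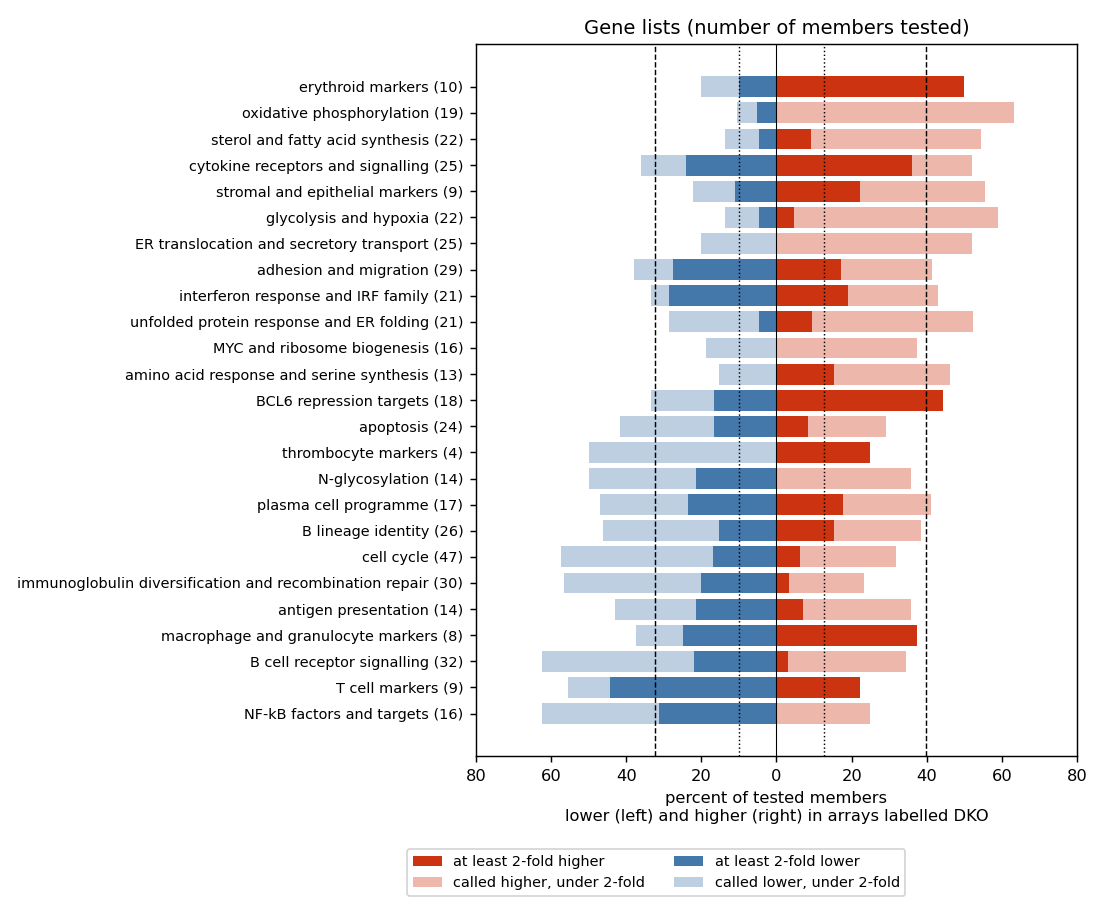
Percent of the tested members of each of 25 lists called higher (right, red) or lower (left, blue) in the arrays labelled DKO, with dark bars for changes of at least 2-fold. Dashed lines mark the percent of all genes tested that were called (39.8 higher, 32.4 lower) and dotted lines the percent past 2-fold (12.7 and 9.94).

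Cell cycle genes leaned lower by small amounts. Of 47, 27 fell and 15 rose (over all genes 32.4% fell and 39.8% rose), with a median log2 change of -0.22, but 8 and 3 passed 2-fold. Under median scaling 6 were called as rises. CCNE2, a cyclin of the G1 to S transition, fell 4.59-fold from 2.96, 2.94 and 3.06 to 0.69, 0.90 and 0.76. CDKN2B, an inhibitor of CDK4 and CDK6, was at least 3.28-fold lower (log2 change -4.01, or -1.29 with normexp). CCND2 and CDKN1B rose, as given above. Among 24 apoptosis genes, 2 rose and 4 fell past 2-fold. TNFSF10, the death ligand TRAIL, fell 21.6-fold from 0.59, 0.59 and 0.60 to -3.62, -4.06 and -3.84 (adjusted p = 8.27e-07). BOK, a killer member of the BCL2 family, fell 8.24-fold, and BCL2 rose. FADD, an adaptor of death receptors, rose by 0.32 log2, or 0.16 under median scaling.

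Metabolic genes mostly changed by under 2-fold. At any size, 39.8% of all genes were called higher and 32.4% lower. In glycolysis and hypoxia 13 of 22 rose and 3 fell, with a median log2 change of 0.16 and 1 gene past 2-fold each way. Under median scaling 8 rose and 4 fell, with a median of 0.01. The lactate transporter SLC16A3 rose 4.37-fold from 0.15, 0.03 and 0.16 to 2.35, 2.16 and 2.21, and the collagen hydroxylase P4HA2 fell 6.54-fold. HIF1A, the oxygen-sensing factor, rose by 0.95 log2, with all 7 of its probes rising by 0.95 to 1.17. PDK1, a brake on pyruvate oxidation, fell by 0.40 log2, and by 0.21 when all probes were averaged.

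In oxidative phosphorylation 12 of 19 rose and 2 fell, with a median log2 change of 0.28, or 0.13 under median scaling. NDUFA9 and UQCRFS1, subunits of complexes I and III, rose by 0.79 and 0.53 log2, while NDUFV3 fell 2.35-fold and NDUFB5 by 0.44 log2. In sterol and fatty acid synthesis 12 of 22 rose and 3 fell, with a median log2 change of 0.23. Under median scaling 9 rose and 7 fell, with a median of 0.08. HMGCS1, an early enzyme of the sterol pathway, rose 2.04-fold and ACSL1, which activates fatty acids, 3.91-fold, while ELOVL6 fell by 0.49 log2 and FABP5 as given above.

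Of 13 amino acid response genes, 2 rose past 2-fold, VLDLR and CEBPB (3.8-fold). ASNS, the asparagine synthetase, fell by 0.72 log2 and was not called with the BCL6KO arrays in the fit (adjusted p = 0.0596). PSPH had a log2 change of -0.14 (adjusted p = 0.0375) that lost its call in 9 alternatives. None of 16 MYC and ribosome biogenesis genes changed by 2-fold. MXD1 and MXD4, which oppose MYC, rose by 0.79 and 0.54 log2, and TWISTNB and WDR43, which serve ribosomal RNA synthesis, fell by 0.59 and 0.47.

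Markers of other cell types were read because a mixed culture would show in them. In bulk RNA, fewer cells of a type cannot be told apart from less RNA per cell. B lineage genes summed to 82.3 to 84.2 times the 75th percentile signal on the WT arrays and 71.9 to 75.4 on the arrays labelled DKO and of the 27 with a probe, 25 were well above background on some WT array and 27 on some array labelled DKO. T cell markers summed to 68.5 to 71.0 and 12.8 to 16.4. Each such sum follows its brightest probes and does not rank the genes. CD3D gave the brightest probe signal of the T cell markers in both groups and made up most of the sum in WT. It read 6.04, 6.01 and 5.99 in WT and 3.07, 3.37 and 3.45 in the arrays labelled DKO (6.59-fold lower), where CD5 came next. CD4, CTLA4, GATA3, GZMA, ICOS and IL7R were not well above background on any of the 6 arrays. CD5, which B cells can also carry, rose 2.02-fold from 1.14, 1.21 and 1.19 to 1.99, 2.28 and 2.32. CD28 had a log2 change of 1.93 (adjusted p = 0.0438), was not well above background in WT, and its call was lost in 10 alternatives. Without DKO array 3 its change was 1.16 (adjusted p = 0.0108).

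Macrophage and granulocyte markers summed to 0.89 to 0.998 in WT and 0.692 to 0.709 in the arrays labelled DKO, and CD14, CSF3R, LYG2 and MARCO were not well above background on any of the 6 arrays. Of 8 tested, 3 rose and 2 fell past 2-fold (37.5% and 25%), with 1 of the 8 measured in 1 group only. With probes well above background on all 6 arrays, 6 were tested, and 2 rose and 2 fell so far. LYZ, lysozyme, fell 7.4-fold and the cathelicidin CATH1 2.37-fold. TLR4 rose 5.33-fold (2.41 log2, or 1.59 with normexp).

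Erythroid markers summed to 16.8 to 17.7 in WT and 14.8 to 16.1 in the arrays labelled DKO. FECH, at mean log2 levels of 4.06 and 3.61, made up most of both sums, which therefore say little about the other markers. Past 2-fold, 5 of 10 markers rose, with 1 of 10 measured in 1 group only. Where probes had to be well above background on all 6 arrays, 5 of the markers were tested, 1 rose past 2-fold and the median log2 change went from 1.76 to -0.09. HBBA read -5.08, -5.93 and -5.78 in WT and 1.15, 0.99 and 0.94 in the arrays labelled DKO (98.5-fold, adjusted p = 2.52e-06). The embryonic globin HBE, the globin HBBR and the carbonic anhydrase CA2, named after their values were seen, were each above background on 2 of 3 WT arrays and on all 3 arrays labelled DKO, where they were higher (adjusted p = 1.23e-07, 4.57e-06 and 6.78e-06). GYPC was at least 3.55-fold higher (3.50 log2, or 1.58 with normexp). H1F0, a linker histone, fell 2.22-fold, and FECH, the last enzyme of haem synthesis, fell by 0.44 log2. The alpha globin HBAD, also named after its value was seen, had a log2 change of 0.11 that did not pass the test (adjusted p = 0.29). The embryonic globins HBE1 and HBZ and the erythroid regulator TAL1 were not well above background on any of the 6 arrays.

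Stromal and epithelial markers summed to 0.708 to 0.750 in WT and 2.81 to 3.24 in the arrays labelled DKO. The rise came mostly from COL1A2, a chain of type I collagen, at -1.68, -1.74 and -1.61 in WT and 1.16, 1.35 and 1.41 in the arrays labelled DKO (7.89-fold, adjusted p = 8.68e-07). The villin gene VIL1 rose 3.03-fold, CLDN3 fell by 0.24 log2 (adjusted p = 0.00497, lost with the slide as a fixed block at 0.0886) and CDH1 was at least 1.77-fold lower (-2.25 log2, or -0.61 with normexp). CDH5, CLDN1, EPCAM and PDGFRA were not well above background on any of the 6 arrays. Thrombocyte markers summed to 1.12 to 1.28 and 1.02 to 1.22. Of 4 tested, 1 rose past 2-fold, and 2 were called lower by under 2-fold. With probes well above background on all 6 arrays, 3 were tested and none changed by 2-fold. TUBB1, a tubulin, fell by 0.19 log2 (adjusted p = 0.0109) and lost its call with the slide as a fixed block (0.0831). What part a few other cells in the cultures play in these changes was not tested.

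For some of the genes above the BCL6KO arrays help to place the level, without a test, because they were scanned in another session with another software version and share the WT controls. PPDPF read 5.92 and 5.56 in BCL6KO, near the arrays labelled DKO, and TNFSF13B read -4.95 and -4.67, again near them. ETV1 read -1.52 and -0.80 and IL1RL1 -8.04 and -6.58, the latter well above background on 1 of 2 arrays, both far below the arrays labelled DKO. CD200 at 1.12 and 1.62 and SDR42E2 at 1.36 and 1.80 were near WT. In BCL6KO, EBF1 cleared background on 1 array and SPI1 on neither, while WT and the arrays labelled DKO both read these genes on every array. Knockout and scan session cannot be told apart in these BCL6KO values.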

How the data were processed

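Scanner files of single-colour Agilent arrays were used. Per the file headers, the authors' processed signal is an intensity on a linear scale, corrected within each array by Feature Extraction 10.7.1.1 (WT and DKO) or 10.7.3.1 (BCL6KO). The authors' deposited value table, also an intensity, was used only to check labels; the submitters' processing notes name limma and R 2.12.0, and its steps are not given in the sources used here. The log2 signal minus each array's 75th percentile was tested in R 4.3.3 with limma 3.58.1 (tables were read with data.table at version 1.17.8) on the 6 WT and DKO arrays, with Benjamini-Hochberg adjustment over 20583 genes. Residual and prior degrees of freedom were 4 and 1.68, so the number of arrays limits precision. Spots flagged as outliers were set missing (114 tested genes). Probes had to be well above background on at least 3 of 6 arrays (29794 probes), and the brightest probe stood for its gene. Of 5662 genes with several kept probes, 112 had probes called in opposite directions, none of them named by the rule below.

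Probes took names through the accessions of the RefSeq table for assembly GRCg7b, which named 10857 probes with 5005 symbols; 4020 tested genes carried one. That assembly is not the array's, so no coordinates are given, and promoter sequence was not analysed here. The members and the 25 lists were chosen with earlier results of these data known. Named genes were IRF4 and BCL6, the fate regulators, the 12 largest measured rises and falls, the 8 largest bounds each way, and up to 2 genes per list and direction; exceptions are marked, and some genes the rule names are not reported here. The fit was tested on simulated data. Alternatives were another background correction, 3 scalings, 2 filters, averaged probes, single probes, a minimum fold, array weights, all 8 arrays, slide and replicate blocks, and leaving out each array; single probes and the slide as a random block were chosen after seeing the data.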

Additional observations from a re-analysis of the deposited data

How the results depend on the processing

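Over the alternatives, no called direction of a named gene turned. The number of genes called ran from 12238 (all 8 arrays in the fit) to 15180 (array weights) with genes as the unit, apart from the fit that asks for a change beyond 1.5-fold, which called 5916. Leaving out each array in turn gave 13852 to 14382 calls. With every probe on its own, 21945 of 29794 were called. With the slide as a fixed block, which compares the arrays within the 2 shared slides, 12721 were called, and with the slide as a random block 14862, both against 14848. The calls past 2-fold numbered 4650, and 2859 where probes had to be well above background on all 6 arrays, since fewer genes with a bound then enter.

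The replicate numbers did not pair the arrays: deviations of same-numbered WT and DKO arrays correlated at -0.03 to 0.01. The fit with the replicate block called 14319 genes, and among the named genes it ended only the call of PSPH (adjusted p = 0.0533). The fit beyond 1.5-fold ended the calls of 30 of the 135 named genes tested. Of 80 named genes with more than 1 kept probe, 79 had all probes on the same side. Signal near background limits the size of large changes, and the knockouts' number of clones is not known.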
